A study of Mus musculus with 19 samples.

Results

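The small leucine-rich proteoglycans are secreted matrix proteins, and 8 of their genes are described here in embryonic mouse kidney: Dcn (decorin), Bgn (biglycan), Lum (lumican), Fmod (fibromodulin), Ogn (osteoglycin, also called mimecan), Prelp (prolargin), Aspn (asporin) and Podn (podocan). They were taken by gene symbol, and all 8 were found among the 20162 distinct names of the E16.5 table and the 24452 of the E14.5 table. Expression was measured by mRNA sequencing in 19 libraries of CFW-strain kidney cells in 7 groups, in a study of nephron and stromal progenitors. At E16.5 (embryonic day), nephrogenic zone cells (NZC, from the outer zone in which nephrons form) carrying no engineered allele were stained inside the fixed cell for SIX2 and sorted (the MARIS method) into SIX2+ and SIX2- cells, and unsorted NZC were sequenced beside them (n = 3 libraries each). SIX2 is a transcription factor of nephron progenitors. Also at E16.5, GFP+ and GFP- cells were taken from developing kidneys with 1 copy of Six2TGC, an allele in which Six2 regulatory sequence drives a GFP and Cre fusion (n = 3 each). At E14.5, Tdt+ and Tdt- cells came from Foxd1Cre;Tdt kidneys (n = 2 each). In these, Cre made under Foxd1 control switches on a red reporter for good, so Tdt+ marks cells that express Foxd1, a transcription factor of stromal progenitors, and the descendants of cells that did. No label ties a library to an animal or litter, so replicate spread may be partly technical and p-values speak to that spread alone.

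These proteins have a core of leucine-rich repeats and most carry glycosaminoglycan chains. Decorin and biglycan carry chondroitin or dermatan sulfate, while lumican, fibromodulin and osteoglycin can carry keratan sulfate. They bind collagen and shape how its fibrils assemble, and several of them bind growth factors such as TGF-beta. In kidney, decorin and biglycan are known as products of interstitial, mural and other connective tissue cells. Decorin, biglycan and asporin form class I of the family, lumican, fibromodulin and prolargin class II, osteoglycin class III, and podocan class V.

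Several of the genes lie side by side in the mm10 genome. Dcn (chromosome 10, 97479609 to 97518143) and Lum (97565128 to 97572703) are separated by 46.984 kb with no coding gene between, and Kera and Epyc follow them. On chromosome 13, Aspn (49544443 to 49567565) lies 11.653 kb from Ecm2, and Omd lies between Aspn and Ogn (49608046 to 49624501). On chromosome 1, Prelp (133910304 to 133921414, minus strand) lies 2.304 kb from Optc and 115.839 kb from Fmod (134037254 to 134048277). Bgn (73483602 to 73495933) is on the X chromosome and Podn (108014791 to 108096445, minus strand) on chromosome 4. Cenpp, on the opposite strand, spans Aspn and Ogn but shares 0 exonic bases with either, whereas the antisense gene Gm15851 shares 350 exonic bases with Prelp. Whether reads were counted by strand is not given in the sources used here, so reads of Gm15851 and Prelp may not be separated.

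RefSeq promoters (GRCm38.p6, the 250 bases before the annotated start) were matched for 6 of the 8 genes. Those of Ogn and Aspn are shown because these near neighbours were both under 1% of the SIX2- level in every SIX2+ library, and that of Bgn because it had the lowest log2(RPKM + 1) fold change of the members in SIX2+ cells, although Ogn and Aspn were lower by ratio. All 3 are on the plus strand, read 5′ to 3′. Capitals mark matches on either strand to the TATA box, GC box, CCAAT box, AP-1, SMAD or RUNX motif, whose letters are given after the sequences.
Ogn, chr13:49607765-49608014: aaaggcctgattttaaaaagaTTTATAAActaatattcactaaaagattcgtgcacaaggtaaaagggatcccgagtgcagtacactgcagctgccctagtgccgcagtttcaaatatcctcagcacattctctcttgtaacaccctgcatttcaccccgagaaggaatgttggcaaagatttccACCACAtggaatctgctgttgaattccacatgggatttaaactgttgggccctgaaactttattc
Aspn, chr13:49544193-49544442: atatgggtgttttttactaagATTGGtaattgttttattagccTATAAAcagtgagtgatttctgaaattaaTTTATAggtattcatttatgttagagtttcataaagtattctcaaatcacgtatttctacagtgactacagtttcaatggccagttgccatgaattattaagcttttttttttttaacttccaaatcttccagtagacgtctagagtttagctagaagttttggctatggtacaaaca
Bgn, chrX:73483351-73483600: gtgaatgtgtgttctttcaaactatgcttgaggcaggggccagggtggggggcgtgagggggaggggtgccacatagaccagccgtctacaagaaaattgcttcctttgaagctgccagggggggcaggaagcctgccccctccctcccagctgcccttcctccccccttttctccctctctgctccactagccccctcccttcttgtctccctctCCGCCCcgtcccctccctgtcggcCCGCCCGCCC
The windows of Ogn and Aspn held the TATA box letters TATAAA at 2 places each, overlapping each other in Ogn, a motif present in 12.4% of the 32851 promoter windows. Bgn held the GC box letters GGGCGG at 3 places, 2 of them overlapping, and 32.7% of windows held it. Aspn also held 1 CCAAT (33.8% of windows) and Ogn 1 TGTGGT, the RUNX letters, which 14.0% held. The AP-1 letters TGANTCA, present in 6.75% of windows, were in none of the 3. Nor were the SMAD letters GTCTAGAC, present in 0.167%. The G and C content was 42% in Ogn, 30% in Aspn and 64.4% in Bgn. These matches describe the letters alone.

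Levels are given in RPKM, which scales reads for transcript length and for library depth, since the deposited numbers have its properties. Estimated depths, as read numbers in units of 1e+06, were 25.9 to 45.5 in the E16.5 libraries other than NZC library 2, which had 3.10. They were 9.41 and 8.36 in Tdt+ libraries, against 30.3 and 26.1 in Tdt- libraries. Six2 was at 294.56 to 457.909 RPKM in SIX2+ and 4.43 to 46.8 in SIX2- libraries, and at 311.591 to 347.682 in GFP+ and 2.70 to 16.8 in GFP- libraries. Foxd1 was at 205 and 102 in Tdt+ and 29.9 and 25.2 in Tdt- libraries, and was also present in SIX2+ (15.9991 to 30.6) and SIX2- (51.4 to 103) libraries. The summed level of 9 stromal progenitor markers was 148 to 169 RPKM in SIX2+, 423 to 587 in SIX2-, 121 to 145 in GFP+ and 720 to 820 in GFP- libraries. At E14.5 it was 768 to 1007 in Tdt+ and 447 to 506 in Tdt- libraries.

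Set against SIX2- cells, SIX2+ cells held little of any of these transcripts. Summed over the 8 genes, they had 3.97 to 5.26 RPKM in SIX2+ and 209.557 to 360.375 in SIX2- libraries. All 7 members tested fell in SIX2+ cells, by a limma test at adjusted p under 0.05. Of the 12817 genes tested, 15.9% were called lower (2036), 8.37% higher (1073) and 24.3% in either direction, and after quantile normalisation 1574 were lower and 1578 higher. The number called higher was 666 without SIX2- library 1 and 1737 without NZC library 2. Their median log2 fold change was -3.98, against 0.04 over all genes tested. Podn, under 1 RPKM in every library, did not pass the filter on low values. Lum, Fmod, Ogn, Prelp and Aspn were under 1 RPKM in every SIX2+ and GFP+ library. They passed that filter only through SIX2-, GFP- and NZC libraries, the groups where they are high. The filter thus left them little room to be called higher in a positive fraction, and their calls add little to the values themselves. In bulk libraries, fewer cells of a type and less RNA per cell cannot be told apart.

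**Figure D1:**
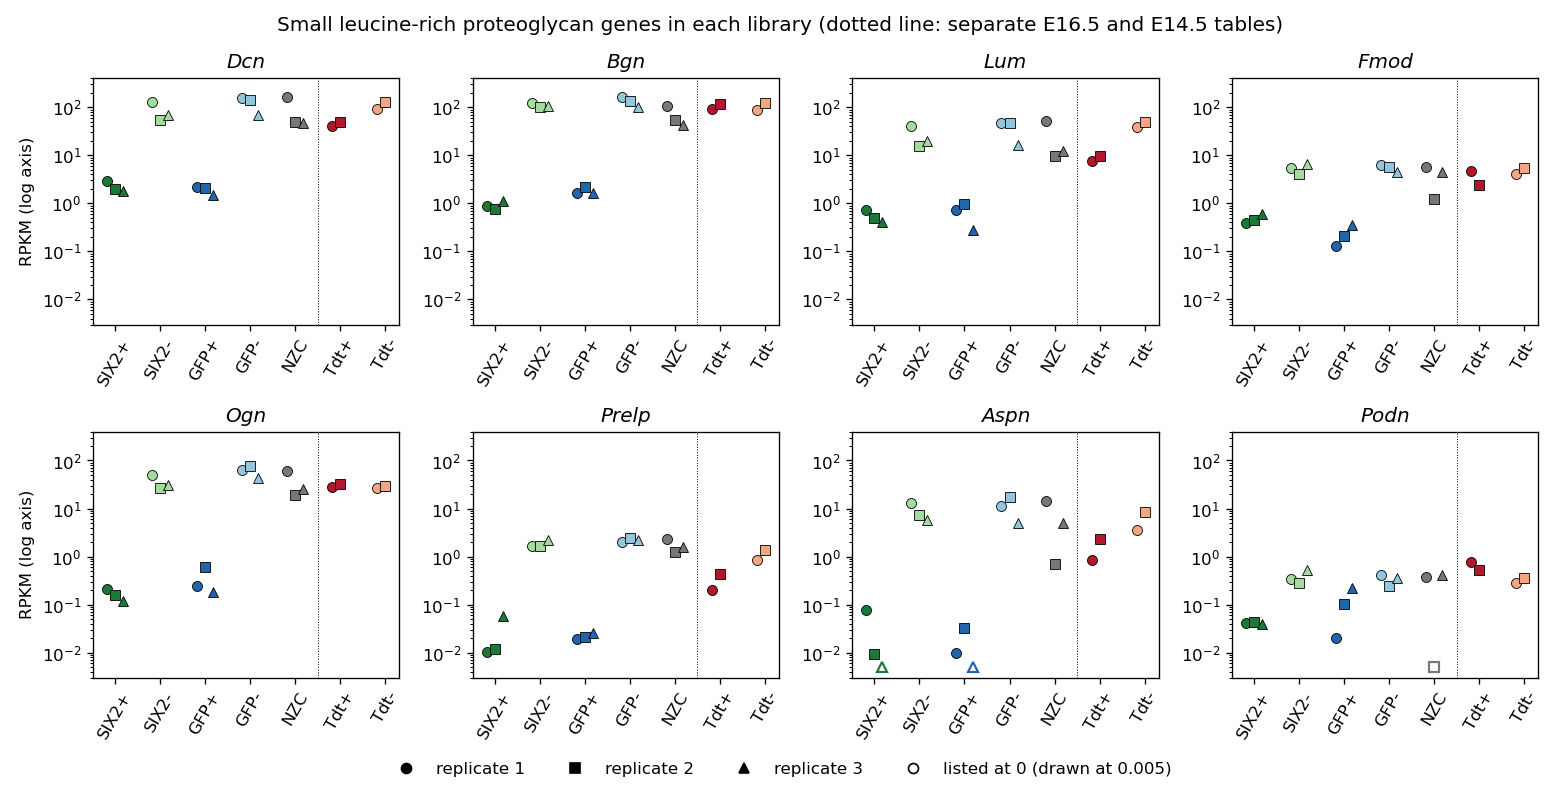
RPKM of each gene (log axis) in each library, by group, with markers for the replicate number, open markers for values listed at 0 and a dotted line between the separately normalised E16.5 and E14.5 tables. All members are lower in SIX2+ and GFP+ than in SIX2- and GFP- libraries, and Lum and Dcn are lower in Tdt+ than in Tdt- libraries while Bgn and Ogn overlap there.

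Bgn, whose product binds type I collagen, had 0.890, 0.757 and 1.12 RPKM in SIX2+ libraries 1, 2 and 3, against 123, 99.4 and 105 in SIX2- libraries 1, 2 and 3. The SIX2- libraries stood close together and far above every SIX2+ library. The log2(RPKM + 1) fold change was -5.84 ± 0.26 (SE; limma adjusted p = 3.55e-09), the 4th lowest of the 12817 genes.

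Dcn, whose product binds collagen fibrils and TGF-beta, had 2.92, 2.03 and 1.83 RPKM in SIX2+ libraries, against 126, 53.8 and 68.3 in SIX2- libraries. It was the most abundant member in SIX2+ cells and the second in SIX2- cells, and the groups did not overlap. Its fold change was -4.60 ± 0.43 (limma adjusted p = 2.29e-06), the 29th lowest.

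Aspn, the class I member that in human cartilage binds TGF-beta, had 0.0777, 0.00929 and 0 RPKM in SIX2+ libraries, against 12.8, 7.43 and 5.68 in SIX2- libraries. Those SIX2+ values correspond to about 5, 1 and 0 reads, beside about 788, 752 and 538 reads in SIX2-, so the class I gene nearest to undetected was Aspn. Its fold change of -3.16 ± 0.59 (limma adjusted p = 0.00103) is held down by the pseudocount of 1, and was -6.05 with a pseudocount of 0.1.

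Among class II genes, Lum had 0.722, 0.505 and 0.411 RPKM in SIX2+ libraries, against 41.0, 15.9 and 19.4 in SIX2- libraries. Lumican is a corneal and connective tissue proteoglycan that limits fibril width, and its groups were far apart (-3.98 ± 0.53, limma adjusted p = 6.75e-05). Fmod, which shares collagen binding sites with lumican, had 0.383, 0.459 and 0.597 RPKM in SIX2+ libraries, against 5.39, 4.05 and 6.62 in SIX2- libraries. Its drop was the smallest on the ratio scale among the tested members, with 33, 65 and 80 estimated reads in SIX2+ cells (-2.08 ± 0.32, limma adjusted p = 0.000199).

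Prelp, whose product links basement membranes to underlying connective tissue, had 0.0101, 0.0121 and 0.0577 RPKM in SIX2+ libraries, against 1.64, 1.69 and 2.19 in SIX2- libraries. The SIX2+ values stand on about 1, 2 and 9 reads, and the log2 fold change of -1.46 ± 0.16 (limma adjusted p = 1.22e-05) understates the distance because all levels are near the pseudocount. Ogn, the class III gene, had 0.216, 0.155 and 0.118 RPKM in SIX2+ libraries, against 49.7, 27.0 and 31.3 in SIX2- libraries. Its fold change was -4.94 ± 0.34 (limma adjusted p = 1.04e-07). The order of Bgn and Ogn turned with the pseudocount, with -6.75 for Bgn and -7.07 for Ogn at a pseudocount of 0.1.

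Podn, a class V gene, had 0.0422, 0.0441 and 0.0399 RPKM in SIX2+ libraries, against 0.338, 0.286 and 0.521 in SIX2- libraries. Its groups did not overlap either, but these are 4 to 6 against 29 to 68 estimated reads. With no filter on low values it fell by 0.40 ± 0.12 on the log2 scale (limma adjusted p = 0.0324).

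The members differed in how much transcript remained in the SIX2+ fraction, given as a percentage of the SIX2- library of the same number. Ogn kept 0.378% to 0.574%, Bgn 0.721% to 1.07% and Aspn 0% to 0.609%. Lum kept 1.76% to 3.18% and Dcn 2.31% to 3.77%. Fmod, at 7.12% to 11.3%, and Podn, at 7.67% to 15.4%, kept the largest shares. Genes of stroma beside them varied as widely. Of fibrillar collagens, Col3a1 kept 0.375% to 0.389%, Col1a2 0.602% to 0.717%, Col1a1 1.29% to 3.61% and Col5a1 6.91% to 11.0%. Pdgfra, a receptor of stromal cells, kept 0.413% to 0.625%, and Pdgfrb, a receptor of mural cells, 1.68% to 1.99%. Of other stromal progenitor markers, Tbx18 kept 0.185% to 0.637% and Ntn1 2.82% to 6.37%. Tcf21 kept 23.7% to 43.2%, Meis1 26.6% to 39.4% and Foxd1 21.6% to 47.8%. The part that carried-over negative cells had in these remainders was not tested.

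**Figure D2:**
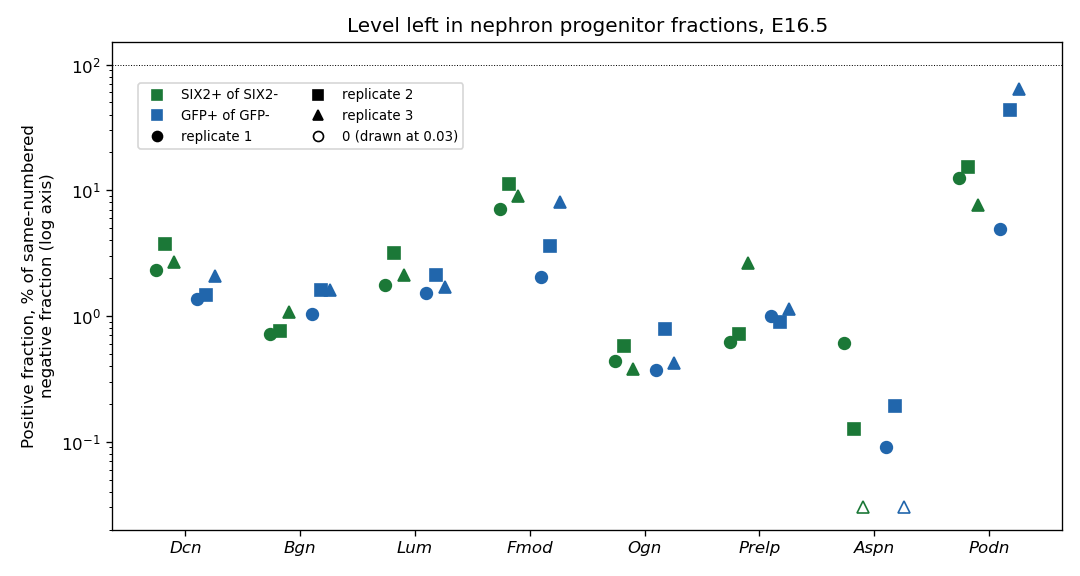
Level of each gene in each SIX2+ library as a percentage of the same-numbered SIX2- library, and in each GFP+ library of the same-numbered GFP- library (log axis), with markers for the replicate number and open markers for 0. Ogn and Aspn lie below 1% in every pair, and Fmod and Podn lie highest for the SIX2 sort.

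The make-up of the summed transcripts also differed between the fractions. The Dcn to Bgn ratio was 3.28, 2.67 and 1.63 in SIX2+ libraries, against 1.02, 0.541 and 0.649 in SIX2- libraries. The 2 sets did not overlap, and the exact permutation p of 0.1 (two-sided) is the smallest that 3 against 3 can give. In the GFP sort the ratio was 1.29, 0.973 and 0.905 in GFP+ libraries, against 0.973, 1.08 and 0.704 in GFP- libraries, with overlap (exact permutation p = 0.6). The Ogn to Bgn ratio was lower in the positive fraction of both sorts without overlap, at 0.105 to 0.243 in SIX2+ against 0.271 to 0.403 in SIX2- libraries, and at 0.114 to 0.278 in GFP+ against 0.398 to 0.568 in GFP- libraries (exact permutation p = 0.1 each). These ratios were chosen after their values were seen. They are not altered by rescaling a library.

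Markers of several other cell types were lower in SIX2+ cells beside the proteoglycans, but not of all. Of all genes tested against SIX2- cells, 15.9% were called lower and 8.37% higher. The 8 mural markers summed to 6.20 to 26.5 RPKM in SIX2+ and 192 to 300 in SIX2- libraries (7 of 8 called lower, Ren1 at 0 in every SIX2+ library), the 8 endothelial markers to 2.42 to 5.82 and 58.8 to 168 (8 of 8 lower), and the 8 leukocyte markers to 0.873 to 10.7 and 79.4 to 109 (8 of 8 lower). Of 9 stromal progenitor markers 8 were called lower. The 8 ureteric epithelium markers summed to 38.3 to 51.1 in SIX2+ and 68.9 to 90.1 in SIX2- libraries (5 of 7 tested lower, 1 higher). The capsule and perineurium fibroblast markers, which include Wt1, summed higher in SIX2+ (152 to 181) than in SIX2- libraries (96.0 to 135), although 4 of 6 tested were called lower and 1, Wt1, higher. The glial and neural markers summed to 9.79 to 13.4 in SIX2+ and 3.83 to 13.8 in SIX2- libraries (0 of 5 lower, 2 higher). The erythroid ones summed to 0.352 to 1.76 and 3.91 to 16.3, with 0 of 7 called by limma. The part of each cell type in the proteoglycan levels was not tested.

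GFP+ cells, obtained with a reporter in place of an intracellular protein, also had little proteoglycan transcript. All 7 tested members fell, where 17% of genes were called lower (2184), 15.9% higher (2035) and 32.9% either way. Here too Lum, Fmod, Ogn, Prelp and Aspn had passed the filter only through groups where they are high, which left little room for a higher call. Rescaled to TPM, 2532 genes were lower and 1397 higher. The sum over the 8 genes was 4.15 to 6.26 RPKM in GFP+ and 242.147 to 450.534 in GFP- libraries. The 8 mural markers summed to 7.92 to 17.9 RPKM in GFP+ and 213 to 329 in GFP- libraries (8 of 8 called lower), the endothelial ones to 1.75 to 7.40 and 47.5 to 90.6 (8 of 8) and the leukocyte ones to 0.294 to 4.63 and 79.5 to 113 (8 of 8). Erythroid markers, globins and other red cell genes, summed to 11.4 to 50.9 in GFP+ and 818 to 8439 in GFP- libraries (7 of 7 lower). The capsule and perineurium list summed to 103 to 127 in GFP+ and 71.0 to 80.2 in GFP- libraries (4 of 6 tested lower, 1 higher), the ureteric list to 25.6 to 28.7 and 31.9 to 53.1 (5 of 7 lower, 1 higher) and the glial and neural list to 6.25 to 7.30 and 5.74 to 44.1 (1 of 5 lower, 2 higher). The part of these cells in the proteoglycan levels was not tested.

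Ogn had 0.240, 0.605 and 0.183 RPKM in GFP+ libraries, against 64.2, 76.7 and 43.1 in GFP- libraries. Bgn had 1.67, 2.18 and 1.61 in GFP+ libraries, against 161, 135 and 99.9 in GFP- libraries. Both genes were apart by far more than their replicate spread, with log2 fold changes of -5.51 ± 0.34 for Ogn and -5.54 ± 0.26 for Bgn (limma adjusted p = 2.63e-08 and 2.43e-09). Dcn had 2.16, 2.12 and 1.46 RPKM in GFP+ libraries, against 157, 145 and 70.4 in GFP- libraries. Lum had 0.725, 0.988 and 0.284 in GFP+ libraries, against 48.0, 46.3 and 16.6 in GFP- libraries. GFP- library 3 was the lowest of its group for both (-5.35 ± 0.43 and -4.39 ± 0.53, limma adjusted p = 3.65e-07 and 2.02e-05).

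Fmod had 0.131, 0.206 and 0.358 RPKM in GFP+ libraries, against 6.44, 5.71 and 4.40 in GFP- libraries. Aspn had 0.00999, 0.0327 and 0 in GFP+ libraries, about 1, 3 and 0 reads, against 11.0, 17.1 and 5.08 in GFP- libraries. Both fell (-2.40 ± 0.32 and -3.44 ± 0.59, limma adjusted p = 4.20e-05 and 0.000407). Prelp had 0.0196, 0.0213 and 0.0258 in GFP+ libraries, about 3 reads in each, against 1.96, 2.40 and 2.26 in GFP- libraries. It fell by 1.65 ± 0.16 on the log2 scale (limma adjusted p = 2.79e-06). Podn had 0.0203, 0.103 and 0.224 in GFP+ libraries, against 0.416, 0.240 and 0.352 in GFP- libraries, without overlap but not called when tested with no filter (limma adjusted p = 0.135).

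The fold changes of the 2 sorts were compared directly as the SIX2 fold change minus the GFP fold change. No member was called by limma, where 0.14% of genes were (0.0468% higher, 0.0936% lower), and none had an unadjusted p under 0.05. The differences ran from -0.30 for Bgn to 0.75 for Dcn on the log2 scale, and the 95% intervals were wide, from -0.56 to 2.06 for Dcn and from -0.31 to 0.68 for Prelp, so differences of these sizes remain possible. The positive fractions themselves were also compared, and 0 of 7 members were called between SIX2+ and GFP+ cells by limma (3.07% of genes, 0.772% higher and 2.3% lower), with 0 at an unadjusted p under 0.05. Bgn, at 0.757 to 1.12 RPKM in SIX2+ and 1.61 to 2.18 in GFP+ libraries, did not overlap and had the lowest unadjusted p (0.0535), with a fold change of -0.55 ± 0.26 (limma adjusted p = 0.335). Fitted on SIX2+ and GFP+ libraries alone, Bgn was called (limma adjusted p = 0.0317), where 6.41% of all genes were. Sorting method, allele and the source of the cells changed together between these groups and cannot be told apart.

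Set against unsorted NZC, all 7 tested members again fell in SIX2+ cells, where 18.5% of genes were called lower (2377), 18.1% higher (2320) and 36.6% either way. Rescaled to TPM, 2668 genes were lower and 1281 higher. This comparison uses the same SIX2+ libraries as the one with SIX2- cells, and the same limit of the filter holds for Lum, Fmod, Ogn, Prelp and Aspn. The NZC libraries varied widely. Dcn had 2.92, 2.03 and 1.83 RPKM in SIX2+ libraries, against 161, 49.9 and 47.0 in NZC libraries 1, 2 and 3. Bgn was at 106, 54.0 and 43.1 in NZC libraries, Lum at 52.0, 9.47 and 12.5, and Ogn at 59.3, 19.4 and 25.7, so NZC library 1 was the highest for each. Aspn was at 14.2, 0.685 and 5.10 and Fmod at 5.76, 1.24 and 4.52, with NZC library 2 low for both. Prelp was at 2.28, 1.25 and 1.55, and Podn at 0.377, 0 and 0.410. In the shallow NZC library 2 the values of Aspn, Fmod and Prelp rest on about 5, 12 and 14 reads.

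The fold changes in SIX2+ against NZC were -5.06 ± 0.26 for Bgn, -4.78 ± 0.34 for Ogn and -4.51 ± 0.43 for Dcn. They were -3.67 ± 0.53 for Lum, -2.39 ± 0.59 for Aspn, -1.56 ± 0.32 for Fmod and -1.37 ± 0.16 for Prelp. By limma, the highest adjusted p among them was 0.00664, for Aspn. Leaving out NZC library 2 or any other library left 7 of 7 called, while Aspn was not called in a fit of SIX2+ and NZC libraries alone (limma adjusted p = 0.0552).

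SIX2- cells were then compared with unsorted NZC. No member was called by limma, where 11.1% of genes were (5.16% higher, 5.95% lower; 661 and 763 genes, 157 and 612 in TPM, 1270 and 1203 with the replicate block), and 1, Bgn, had an unadjusted p under 0.05. Bgn averaged 109 ± 12.5 RPKM in SIX2- cells and 67.7 ± 33.7 in NZC (SD, n = 3 each; 0.78 ± 0.26, limma adjusted p = 0.0643), and its lowest SIX2- library lay between the NZC libraries. With replicate number as a block Bgn was called (limma adjusted p = 0.0434), and without NZC library 1 it was called higher in SIX2- cells at 1.16 ± 0.20 (limma adjusted p = 0.00337) together with Aspn (1.52, adjusted p = 0.0477). Of all genes, 19.3% were called with the block and 18.8% without NZC library 1. Markers of other cells moved in the same comparison, and their part was not tested. Of 8 mural markers 2 were called higher in SIX2- cells, Pdgfrb (0.99) and Kcnj8 (1.40), with summed levels of 192 to 300 RPKM in SIX2- and 73.1 to 230 in NZC libraries. Of 8 leukocyte markers 4 were higher (79.4 to 109 in SIX2- and 24.4 to 45.4 in NZC libraries), and of 7 erythroid markers 5 were lower (3.91 to 16.3 in SIX2- and 272 to 2979 in NZC libraries). Of 8 nephron progenitor markers 4 were lower (61.2 to 168 in SIX2- and 215 to 478 in NZC libraries). So were 2 of 7 tested ureteric markers and 1 of 5 tested glial and neural markers, and 1 of 9 stromal progenitor markers was higher. Dcn averaged 82.7 ± 38.3 in SIX2- cells and 85.8 ± 64.8 in NZC, Lum 25.5 ± 13.6 and 24.7 ± 23.7, and Ogn 36.0 ± 12.1 and 34.8 ± 21.5. Those differences are far inside the replicate spread, and the fitted log2 differences of Dcn, Lum and Ogn, at 0.10, 0.32 and 0.16, were -0.17, -0.14 and -0.17 without NZC library 2.

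The negative fractions, SIX2- and GFP-, were compared next. None of 7 members was called by limma, where 10.1% of genes were (5.7% higher, 4.42% lower; 730 and 566 genes, 225 and 649 in TPM, 1540 and 993 with the replicate block), and 1, Ogn, had an unadjusted p under 0.05. Ogn averaged 36.0 ± 12.1 RPKM in SIX2- and 61.3 ± 16.9 in GFP- cells (-0.76 ± 0.34, limma adjusted p = 0.155). The remaining fold changes ran from -0.59 for Dcn to -0.04 for Fmod, with 95% intervals such as -1.52 to 0.33 for Dcn and -1.64 to 0.65 for Lum. Of 9 stromal progenitor markers 2 were called lower in SIX2- cells, Pdgfra (-1.27) and Sfrp1 (-0.73), as were 5 of 7 erythroid markers. Of 7 ureteric markers 1, Hoxb7 (1.13), was higher, and no mural, endothelial or leukocyte marker was called. The part of these cells was not tested. Sorting method, allele and the source of the cells changed together here too and cannot be told apart.

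Within both negative fractions the order of the mean levels was the same: Bgn, Dcn, Ogn, Lum, Aspn, Fmod, Prelp and Podn. In SIX2- cells Bgn and Dcn, at 109 ± 12.5 and 82.7 ± 38.3 RPKM, overlapped between libraries, as did Ogn and Lum (36.0 ± 12.1 and 25.5 ± 13.6), and Aspn and Fmod (8.62 ± 3.69 and 5.35 ± 1.28). Bgn ranked 573rd and Dcn 778th among all 20162 genes in SIX2- cells, and 382nd and 405th in GFP- cells. In SIX2+ cells the order began with Dcn, Bgn, Lum and Fmod, and Dcn ranked 10100th. Replicates varied unequally, from 1.24 times between the highest and lowest SIX2- library for Bgn and 1.34 for Prelp to 2.35 for Dcn and 2.58 for Lum. Library 1 was the highest SIX2- library for Bgn, Dcn, Ogn, Lum and Aspn, and library 3 for Fmod, Prelp and Podn.

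**Figure D3:**
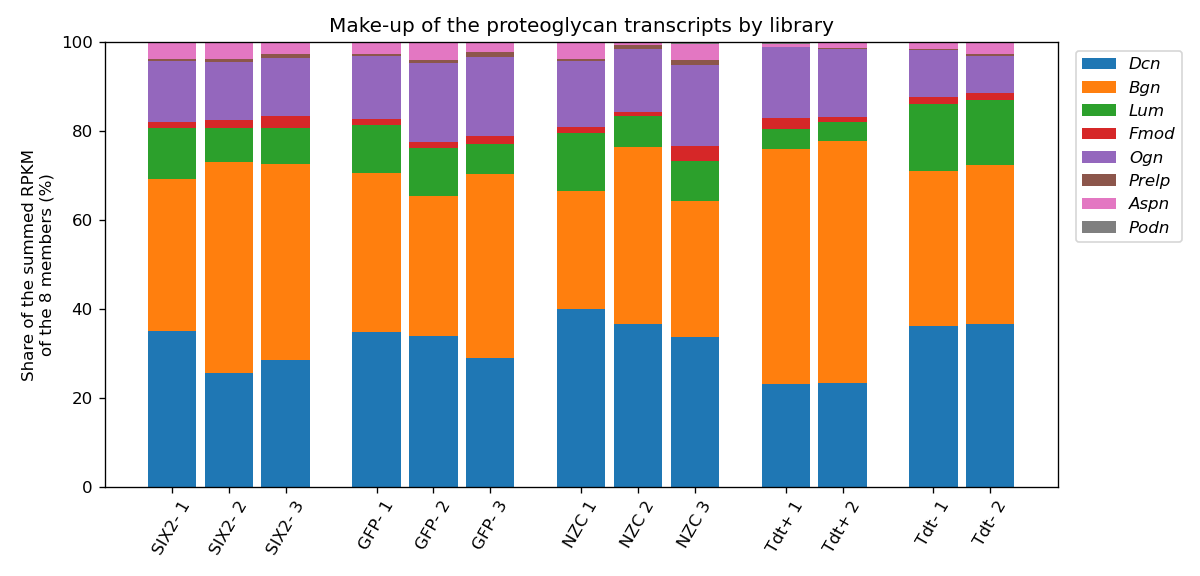
Share of each gene (%) in the summed RPKM of the 8 genes, 1 bar per library, for the 5 groups in which the sum exceeds 100 RPKM. Dcn and Bgn together make up most of the sum in each bar, and Tdt+ bars hold more Bgn and less Lum than Tdt- bars.

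At E14.5 the proteoglycan genes did not move together. Foxd1-lineage Tdt+ cells had less Lum and Dcn than Tdt- cells, while Bgn and Ogn lay within the replicate spread. Of 6 members tested 2 were called lower and 0 higher in Tdt+ cells, where 7.21% of 12383 genes were called lower (893), 1.22% higher (151) and 8.43% in either direction. After quantile normalisation 483 genes were lower and 239 higher. The members' median fold change was -0.83, against -0.04 over all genes.

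Lum had 7.52 and 9.61 RPKM in Tdt+ libraries 1 and 2, against 38.3 and 50.5 in Tdt- libraries 1 and 2. The Tdt+ level was 19.3% of the Tdt- level, and the log2 fold change was -2.24 ± 0.25 (limma adjusted p = 0.00216), the 155th lowest of 12383 genes. Lum kept its call without each library in turn but not with no filter on low values (limma adjusted p = 0.0514). Dcn had 40.1 and 50.5 RPKM in Tdt+ libraries, against 92.4 and 126 in Tdt- libraries, without overlap. Its fold change of -1.24 ± 0.26 was called (limma adjusted p = 0.0256), but not with no filter (0.107), after median-of-ratios scaling (0.0516), or without Tdt- library 1 (0.127) or 2 (0.345).

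Bgn had 92.2 and 118 RPKM in Tdt+ libraries, against 89.1 and 123 in Tdt- libraries. The Tdt+ values lay between the Tdt- values, with a fold change of -0.00 ± 0.28 and a 95% interval of -0.65 to 0.64 (limma adjusted p = 0.995). Ogn had 27.6 and 33.1 RPKM in Tdt+ libraries, against 26.7 and 29.1 in Tdt- libraries, and overlapped too (0.11 ± 0.22, 95% interval -0.39 to 0.62, limma adjusted p = 0.798). Fmod had 4.61 and 2.41 RPKM in Tdt+ libraries, against 4.12 and 5.58 in Tdt- libraries. The spread between its Tdt+ libraries exceeded the difference of the group means (-0.41 ± 0.31, limma adjusted p = 0.485).

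Aspn had 0.852 and 2.32 RPKM in Tdt+ libraries, about 19 and 46 reads, against 3.51 and 8.46 in Tdt- libraries. The groups did not overlap, but replicate 2 was well above replicate 1 in both, and Aspn was not called (-1.40 ± 0.42, limma adjusted p = 0.0881). With replicate number as a block it was (adjusted p = 0.000115), and without Tdt+ library 2 as well (0.0246). Prelp had 0.205 and 0.428 RPKM in Tdt+ libraries, against 0.844 and 1.36 in Tdt- libraries, and was too low in most libraries to enter the test. Podn had 0.760 and 0.513 RPKM in Tdt+ libraries, against 0.283 and 0.360 in Tdt- libraries, the only member with both Tdt+ libraries above both Tdt- libraries. With no filter, neither Prelp (limma adjusted p = 0.168) nor Podn (0.233) was called.

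**Figure D4:**
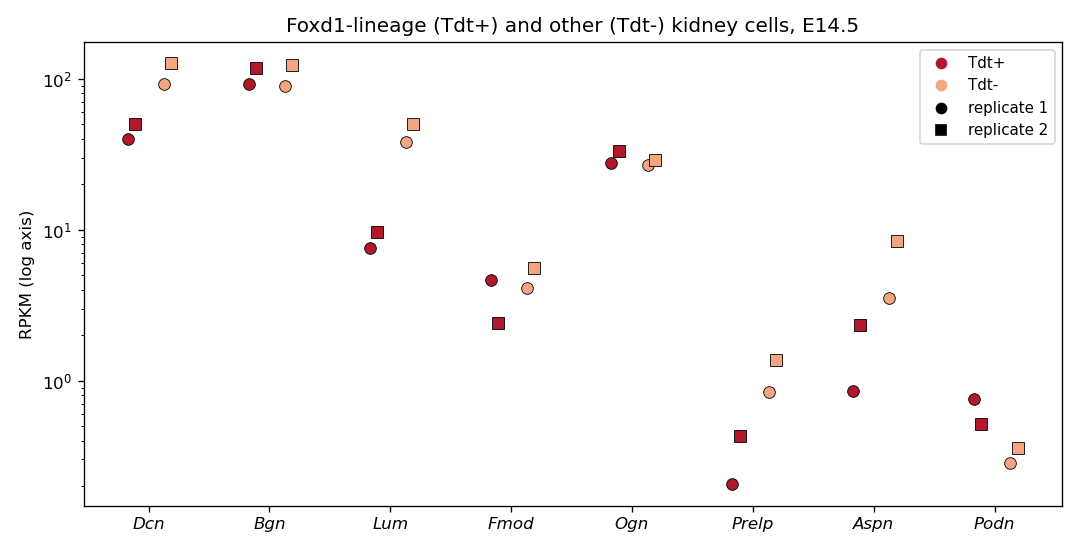
RPKM of the 8 genes (log axis) in the E14.5 Tdt+ and Tdt- libraries, with circles for replicate 1 and squares for replicate 2. Lum, Dcn, Prelp and Aspn are lower in both Tdt+ libraries, Bgn, Ogn and Fmod overlap, and Podn is higher in both Tdt+ libraries.

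The ratio of Dcn to Bgn was 0.435 and 0.426 in Tdt+ libraries, against 1.04 and 1.03 in Tdt- libraries. Lum relative to Bgn was 0.0816 and 0.0811 in Tdt+ libraries, against 0.430 and 0.410 in Tdt- libraries. Replicates were thus close and the groups far apart, although with 2 against 2 the exact permutation p cannot fall below 0.333, its value for both. Of the summed RPKM, Bgn made up 53.0% and 54.5% in Tdt+ libraries, against 34.9% and 35.7% in Tdt- libraries. Dcn made up 23.1% to 23.2% in Tdt+ and 36.2% to 36.6% in Tdt- libraries. These ratios, too, were picked after their values were seen.

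Other markers moved with the Tdt sort, where 7.21% of all genes were called lower and 1.22% higher. The 8 endothelial markers summed to 22.1 to 29.9 RPKM in Tdt+ against 84.98 to 113 in Tdt- libraries (5 of 8 called lower, with Cldn5 at 0 in 1 Tdt+ library), and the 8 leukocyte markers to 1.94 to 6.58 against 27.3 to 89.4 (5 of 6 tested lower, with Ptprc, Tyrobp and Cd52 at 0 in both Tdt+ libraries). The 8 nephron progenitor markers summed to 44.2 to 74.0 against 313 to 332 (6 of 8 lower). The 8 capsule and perineurium fibroblast markers summed to 62.0 to 78.9 in Tdt+ against 114 to 133 in Tdt- libraries, with Wt1, a podocyte and progenitor gene as well, the highest of them in each of the 4 libraries, and Cd34 was the 1 called lower of 5 tested. The 8 mural markers summed to 175 to 211 against 154 to 308, with 0 of 7 called by limma and 2 at an unadjusted p under 0.05, Myh11 lower and Kcnj8 higher. Of 9 stromal progenitor markers 4 were called higher, led by Ntn1 and Foxd1, and 0 lower. The list did not rise as a whole. Tcf21 was at 93.7 and 76.0 RPKM in Tdt+ against 131 and 117 in Tdt- libraries. Tbx18 was at 5.30 and 2.74 in Tdt+ against 11.3 and 6.26 in Tdt- libraries. Erythroid markers summed to 10.5 to 108 in Tdt+ and 186 to 1516 in Tdt- libraries, with 0 of 5 tested called by limma. The part that these cells had in the Lum and Dcn levels was not tested. The depth difference between Tdt+ and Tdt- libraries also runs with the groups and cannot be told apart from them.

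Among 10 other genes of the family, most were barely detected in kidney cells. Tsku (tsukushi, a secreted inhibitor of BMP signalling) was the most abundant, at 6.78 ± 0.563 RPKM in SIX2+ and 9.97 ± 1.12 in SIX2- cells, and fell in SIX2+ (-0.49 ± 0.14, limma adjusted p = 0.0159) and in GFP+ cells (-0.61 ± 0.14, adjusted p = 0.00352), although it stayed at 6.61 ± 0.289 RPKM in GFP+ against 10.6 ± 0.707 in GFP- cells. Chadl, a chondroadherin relative, averaged 0.824 ± 0.197 in SIX2+ and 0.961 ± 0.0649 in SIX2- cells without a call (limma adjusted p = 0.749). Omd (osteomodulin), between Aspn and Ogn, was listed at 0 in all 3 SIX2+ libraries and averaged 0.554 ± 0.251 in SIX2- cells. Kera (keratocan), beside Lum, was listed at 0 in all SIX2+ and GFP+ libraries and averaged 0.323 ± 0.128 in SIX2- and 0.503 ± 0.125 in GFP- cells. Ecm2, beside Aspn, averaged 0.0420 ± 0.0105 in SIX2+ and 0.628 ± 0.0680 in SIX2- cells. Epyc, Optc, Chad, Nyx and Podnl1 averaged under 0.6 RPKM in all 7 groups. At E14.5 Tsku and Omd were tested and not called between Tdt+ and Tdt- cells (limma adjusted p = 0.541 and 0.730).

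Collagens that these proteoglycans bind fell with them. Of 11 fibril partners all 11 were called lower in SIX2+ than in SIX2- cells, with a median log2 fold change of -4.52, and all 11 in GFP+ against GFP- cells, with a median of -5.42. Of all genes, 15.9% and 17% were called lower in these comparisons, in that order. Col3a1 averaged 1.65 RPKM in SIX2+ and 429 in SIX2- cells (-7.33 ± 0.35), Col1a2 2.29 and 335 (-6.67 ± 0.29) and Col1a1 8.19 and 421 (-5.50 ± 0.33; limma adjusted p = 5.01e-09, 3.00e-09 and 2.87e-08). At E14.5, 2 of the 11 were called lower in Tdt+ than in Tdt- cells, where 7.21% of all genes were. They were Col14a1, a collagen on fibril surfaces, at 10.8 against 51.5 RPKM (-2.13 ± 0.31), and the cross-linking enzyme gene Lox at 11.1 against 39.6 (-1.76 ± 0.26; limma adjusted p = 0.00611 and 0.00609). Between the negative fractions 4 of the 11 were called lower in SIX2- than in GFP- cells and 0 higher, where 4.42% of all genes were lower. The median log2 fold change of the 11 was -0.95, against 0.10 over all genes. Col12a1 had the largest difference, at 18.9 RPKM in SIX2- and 54.1 in GFP- cells (-1.51 ± 0.18, limma adjusted p = 0.000546).

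Of 18 tested proteoglycan cores outside the family, 4 rose and 6 fell in SIX2+ against SIX2- cells, where 8.37% of all genes rose and 15.9% fell. In GFP+ against GFP- cells 6 rose and 7 fell, where 15.9% and 17% of all genes did. Spock2 (testican-2) rose, to 149 RPKM in SIX2+ against 11.5 in SIX2- cells (3.94 ± 0.56) and to 168 in GFP+ against 7.67 in GFP- cells (4.38 ± 0.56; limma adjusted p = 0.000111 and 3.23e-05). Srgn (serglycin, the granule proteoglycan of blood cells) fell by 2.52 ± 0.37 in SIX2+ cells, and Gpc4, a glypican, by 2.38 ± 0.26 (limma adjusted p = 0.000159 and 9.97e-06). In Tdt+ cells 0 of 17 rose and 7 fell, where 1.22% of all genes rose and 7.21% fell. Those that fell were led by Spock2 at 2.12 RPKM in Tdt+ against 113 in Tdt- cells (-5.18 ± 0.27) and Vcan (versican) at 13.3 against 133 (-3.24 ± 0.25; limma adjusted p = 0.000122 and 0.000702).

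The enzymes that make the sugar chains were taken as further lists. Of 20 linker and chondroitin or dermatan sulfate genes, 1 rose and 4 fell in SIX2+ against SIX2- cells, with a median of -0.33, against 0.04 over all genes. These shares are near those of all genes, 8.37% higher and 15.9% lower. The largest change was in Dse, dermatan sulfate epimerase, which turns chondroitin into dermatan sulfate, at 4.54 RPKM in SIX2+ and 14.8 in SIX2- cells (-1.54 ± 0.24, limma adjusted p = 0.000244), followed by the sulfotransferase gene Chst3 (-0.99 ± 0.20). In GFP+ cells 2 of the 20 rose and 8 fell, where 15.9% of all genes rose and 17% fell. Dse was at 4.08 RPKM in GFP+ and 24.8 in GFP- cells (-2.32 ± 0.24, limma adjusted p = 3.89e-06). Xylt1, whose enzyme places the first linker sugar, rose in GFP+ cells (8.9997 RPKM in GFP+ against 2.67 in GFP- cells, 1.37 ± 0.34, limma adjusted p = 0.00611) and was lower in SIX2+ than in GFP+ cells (1.25 against 8.9997 RPKM, -2.14 ± 0.34, adjusted p = 0.00353). It was below unsorted NZC (4.88 RPKM) in SIX2+ (-1.41 ± 0.34) and in SIX2- cells (0.684 RPKM, -1.80 ± 0.34; limma adjusted p = 0.00572 and 0.00668). The SIX2- level was also below that of GFP- cells (-1.16 ± 0.34, limma adjusted p = 0.0446). In Tdt+ cells 2 of 19 fell, where 7.21% of all genes did. They were Xylt1 at 1.31 against 7.76 RPKM in Tdt- cells (-1.89 ± 0.31) and Chst15 at 1.46 against 7.997 (-1.88 ± 0.29; limma adjusted p = 0.00987 and 0.00742).

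Of 9 keratan sulfate enzymes 1 rose and 4 fell in SIX2+ cells, where 8.37% of all genes rose and 15.9% fell. Chst5 rose, at 2.09 RPKM in SIX2+ against 0.158 in SIX2- cells (1.42 ± 0.24, limma adjusted p = 0.000548), and B3gnt2 (-1.22 ± 0.26) and Fut8 (-1.16 ± 0.25) fell (adjusted p = 0.00255 and 0.00295). In GFP+ cells 1 rose and 5 fell, where 15.9% of all genes rose and 17% fell. The gene that rose was again Chst5 (1.84 ± 0.24, limma adjusted p = 4.37e-05). None of 8 was called in Tdt+ cells by limma, where 8.43% of all genes were. The largest difference was Chst1, at 2.28 RPKM in Tdt+ and 4.59 in Tdt- cells (-0.77 ± 0.25, limma adjusted p = 0.113).

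**Figure D5:**
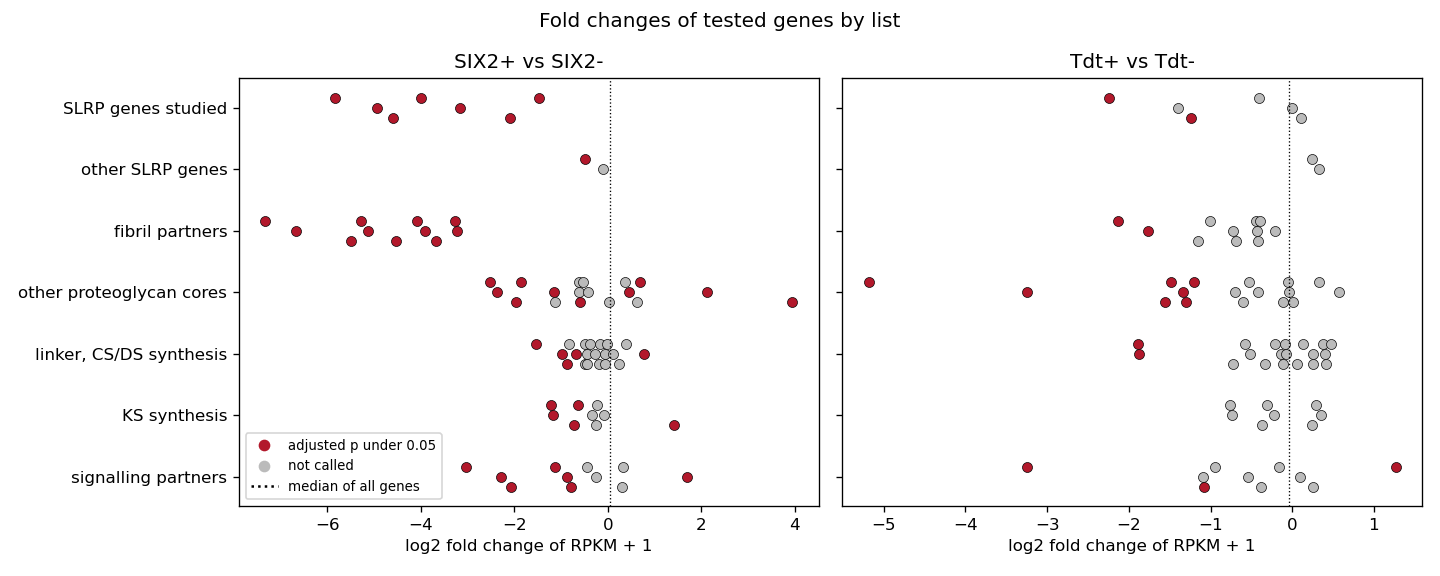
Log2(RPKM + 1) fold change of each tested gene by list, for SIX2+ against SIX2- cells (left) and Tdt+ against Tdt- cells (right), with red points for genes called by limma at adjusted p under 0.05 and dotted lines at the median of all genes (0.04 and -0.04). The proteoglycan genes studied and the fibril partners lie well below the median on the left, and 2 of each list are called lower on the right.

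Of 11 tested genes for growth factors and receptors that these proteins bind, 1 rose and 6 fell in SIX2+ cells, where lower calls also outnumbered higher ones over all genes (15.9% and 8.37%). Among those that fell were Tgfb1 at 0.791 RPKM in SIX2+ and 13.5 in SIX2- cells (-3.02 ± 0.29), Wisp1 (-2.28 ± 0.14) and Egfr, a decorin-binding receptor gene (-2.06 ± 0.21; limma adjusted p = 3.03e-06, 2.93e-08 and 5.43e-06). In GFP+ cells 1 rose and 5 fell, where 15.9% of all genes rose and 17% fell, and those that fell were led by Egfr (-3.04 ± 0.21), Tgfb1 (-2.90 ± 0.29) and Wisp1 (-2.55 ± 0.14). The gene that rose in both sorts was Met, a receptor that decorin binds, named after its values were seen (1.70 ± 0.19 in SIX2+ and 2.37 ± 0.19 in GFP+ cells, limma adjusted p = 1.15e-05 and 3.38e-07). In Tdt+ cells Met fell to 0.157 RPKM, against 9.99 in Tdt- cells (-3.25 ± 0.25), Tgfbr1 was at 12.4 against 26.8 (-1.08 ± 0.27) and Tgfb3 rose, at 39.5 RPKM in Tdt+ against 15.6 in Tdt- cells (1.27 ± 0.24; limma adjusted p = 0.000676, 0.0471 and 0.0185).

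Genes with profiles closest to each member were sought among 9524 genes, by the root mean square difference of centred log2(RPKM + 1) values over the 15 E16.5 libraries. This describes likeness across groups that share the sorts. Closest to Dcn was Agtr2, the angiotensin type 2 receptor gene (difference 0.25 on the log2 scale), then Olfml3 and Emp1. Closest to Ogn were Ldb2 (0.24), Agtr2 (0.24) and Col6a1 (0.26), and closest to Bgn were the type VI collagen genes Col6a2 (0.26) and Col6a1 (0.26) and then Ecm1. Lum was nearest to Vcam1 (0.37), Creb3l1 and Matn2, and Aspn to Rhoj (0.41), Asb4 and Tmem45a. Fmod was nearest to Pear1 (0.25), Pdlim1 and Slc2a13, and Prelp to Gab2 (0.16), Myo1d and Ralb. Among the members themselves Dcn and Ogn were nearest to each other (0.26), as were Fmod and Prelp (0.42). The profiles were centred but not scaled, so genes match by the size of their changes as well as by shape. The pseudocount of 1 holds down the changes of low genes such as Prelp and Fmod, so their matches partly reflect low level.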

How the data were processed

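Stranded mRNA libraries (Kapa kit) were made after RNA isolation with the RecoverAll and RNeasy Micro kits, per the labels' protocols, which do not assign kits to libraries. TopHat2, Partek and the mm10 build are named, without versions or roles, per the submitters' processing notes. The authors deposited 1 table for E16.5 (15 libraries) and 1 for E14.5 (4 libraries), normalised separately and titled TPM. The deposited values behave as RPKM: column sums differ (coefficient of variation 7.99% and 13.8%), and sums multiplied by exonic length do not (1.91% and 1.55%). Tests designed for TPM were kept and made within a table only. Lines of the same name were summed. Lengths and positions came from GENCODE M21 (GRCm38, also called mm10). Low values step by 1 read, and these steps gave the estimated depths. Values came out whole, within 0.05 reads, for 45.8% to 57.5% of low values per library, so no count model was used and read numbers are approximate.

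Values were compared as log2(RPKM + 1) with limma 3.58.1 in R 4.3.3 (eBayes with trend, two-sided), over genes at 1 or more in at least 3 (E16.5) or 2 (E14.5) libraries, with calls made at adjusted p (Benjamini-Hochberg) under 0.05. Every adjusted p in the text is limma's, over all genes tested. The E16.5 fit held all 15 libraries. Tables and figures used pandas 2.3.3, numpy 2.4.6, matplotlib 3.10.9 and python 3.11.15, and the fits were tested on simulated data.

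The members and lists were chosen with earlier results of these data known. All 8 members, all other family genes, up to 3 called genes of each further list and the 3 most alike genes per member are named. Where a list's counts are given, they cover every gene of the list that was tested, but the choice of the lists was not blind to these data. Replicate numbers are shared across groups. Deviations from group means correlated above 0.1 in every same-numbered pair of SIX2+ and SIX2-, GFP+ and GFP-, SIX2- and NZC, and SIX2- and GFP- libraries. For SIX2+ and NZC (0.06 in pair 2) and SIX2+ and GFP+ (-0.02 in pair 2) they did not, and Tdt has 2 pairs only. The reported fits treated libraries as unpaired, with the replicate block as an alternative only. With the block, genes called went from 3109 to 3719 in SIX2+ against SIX2- cells and from 1296 to 2533 in SIX2- against GFP- cells. SIX2- and GFP- cells came from kidneys of different genotype, so a shared number there does not mean a shared animal. Alternatives were other pseudocounts, filters and scalings, only the groups compared, the replicate block and leaving out each library.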

Additional observations from a re-analysis of the deposited data

How the results depend on the processing

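Each member's value was recomputed under other pseudocounts, filters, scalings and sample sets. All 7 members kept their direction and call in SIX2+ against SIX2- and in GFP+ against GFP- cells in each of the 111 values per comparison, and 7 were called without each library in turn there and in SIX2+ against NZC. Of 875 values for single genes over all comparisons, 840 kept direction and side of the threshold, 23 changed sign, 6 gained and 6 lost a call, and of 128 counts of called members 7 changed by more than 1.5 times. Members called in SIX2- against NZC, 0 in the fit reported, were 1 with the replicate block and 0 to 2 leaving out 1 library. Of all genes, 19.3% were called with that block and 2.84% to 18.9% leaving out 1 library, against 11.1% in the fit reported. In SIX2+ against GFP+ the count was 1 when only those groups were fitted, where 6.41% of all genes were called, against 3.07% in the fit reported. In Tdt+ against Tdt- it was 0 with no filter, 1 with median-of-ratios scaling and 1 to 3 leaving out 1 library. Leaving out a Tdt library leaves its group with a lone sample, which is assumed to vary like the other group.

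No value that changed sign was called in the fit reported, but not all were small. In SIX2- against NZC, Aspn was at 0.77 and Lum at 0.32 in that fit. In each case the cause of the change was not tested. Dcn in SIX2- against NZC was -0.084 after quantile normalisation, Bgn in the difference of sorts was 0.039 with pseudocount 5, Bgn in Tdt+ was 0.095 after median-of-ratios scaling, and Ogn in Tdt+ was -0.11 in TPM. Leaving out 1 library, SIX2- against NZC ran from -0.25 to 0.67 for Dcn, -0.14 to 1.03 for Lum, -0.17 to 0.62 for Ogn, -0.033 to 0.24 for Prelp and -0.065 to 1.52 for Aspn. SIX2- against GFP- ran from -0.19 to 0.11 for Fmod and -0.69 to 0.10 for Aspn. SIX2+ against GFP+ ran from -0.27 to 0.050 for Lum, -0.016 to 0.017 for Prelp and -0.014 to 0.040 for Aspn. The difference of sorts ran from -0.082 to 0.71 for Aspn, and Tdt+ against Tdt- from -0.24 to 0.23 for Bgn and -0.013 to 0.24 for Ogn. TPM shifted the median of all genes by -0.17 in SIX2- against GFP- and by -0.25 in Tdt+ against Tdt-.

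The replicate block also raised the genes called between SIX2+ and GFP+, to 728 against 394 without it, and between Tdt+ and Tdt-, to 2307 against 1044; it changed no call of a member other than those of Bgn in SIX2- against NZC and Aspn in Tdt+ given above. Over all genes, the total called moved by more than 1.5 times in 45 of the refits, none of them in SIX2+ against SIX2- or GFP+ against GFP-. In SIX2+ against SIX2-, however, the 1073 genes called higher became 666 without SIX2- library 1, 1737 without NZC library 2 and 1697 with only those groups fitted. In SIX2- against NZC totals ran from 21 (only those groups) to 2473, in SIX2- against GFP- from 204 (without SIX2- library 2) to 3266 (without NZC library 2), in SIX2+ against GFP+ from 132 (without GFP+ library 1) to 985 (without NZC library 2), in the difference of sorts from 1 to 138, in Tdt+ against Tdt- from 229 (no filter) to 3336 (without Tdt+ library 1), and SIX2+ against NZC fell to 1879 when only those groups were fitted. Depth limits Aspn, Prelp and Podn in the positive fractions, where a few reads set each value, and every low gene in NZC library 2.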
